A study of Mus musculus with 5 samples.

Results

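Hypoxia-inducible factor (HIF) targets and the genes of glycolysis were followed as a set of 34 genes through the immune cells of mouse tumours and through cultured dendritic cells. The 34 genes were listed by name, and all 34 were present in each of the 3 single-cell matrices, which held 18087, 19427 and 19603 genes. Of the 34, 19 carry out or regulate glycolysis (3 glucose and lactate transporters, 14 enzymes and 2 regulators), 14 are targets of HIF outside glycolysis, and Hif1a encodes the oxygen-regulated subunit of the factor itself.

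Live CD45+ cells were sorted from tumours and sequenced by 3′ droplet RNA sequencing. The 5555 melanoma line grew in C57BL/6 mice and was harvested on day 4. It was studied as Ptgs-/- tumours in mice depleted of NK cells with anti-NK1.1 (clone PK136) and anti-Asialo GM-1, as Ptgs-/- tumours in untreated mice, and as Ptgs+/+ tumours. Ptgs-/- lines lack the prostaglandin synthase genes, so that the deletion is in the cancer cells and not in the immune cells measured. CT26 colon carcinoma tumours in BALB/c mice were taken on day 12, and their cells and library carry the name vehicle. Bone marrow cultures of C57BL/6 dendritic cells were harvested on day 10 after growth with Ptgs-/- 5555 cells, with Ptgs+/+ 5555 cells, or untreated, and these 3 conditions shared 1 hashtagged library. No label spells out the hashtag names, which were read as control, wild type and knockout and matched to the conditions in the title of the library, and the direction of every culture fold rests on that reading. The sources used here give neither the number of mice behind a library nor the number of clones behind a line.

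Each tumour condition is 1 library and each culture condition 1 hashtag, so no difference below was tested against replicates, and every interval covers counting error alone. Cells numbered 3879 in the NK-depleted Ptgs-/- library, 4677 in the Ptgs-/- library, 3262 in the Ptgs+/+ library and 8987 in the CT26 library, with median depths of 5462, 4562, 3634 and 3822 UMIs (unique molecular identifiers, 1 per captured transcript). The 3 culture conditions held 3344 to 3884 cells at median depths of 8806 to 9710 UMIs. The authors' deposited class names were used. Marker genes of neutrophils, B cells, T cells and other types were summed in each class as a check of the names. The data went against the name of the 45 cells called NK cells in the NK-depleted library, which had 16.6 CPM (transcript counts scaled to a common total in every cell, then averaged over cells) of NK markers, with 5 of 7 at 0, and 2837 CPM of T cell markers, while the NK cells of Ptgs-/- tumours had 11486 CPM of NK markers and those of Ptgs+/+ tumours 10872 CPM. No fold uses those 45 cells, which stay among the 14 ranked classes of that library. Marker sums also crossed elsewhere. Macrophage markers exceeded monocyte markers in Monocytes 1 of the 3 libraries of 5555 tumours (8865 and 6335 CPM in NK-depleted Ptgs-/-, 11472 and 6217 CPM in Ptgs-/-, 10484 and 5447 CPM in Ptgs+/+ tumours). Monocyte markers exceeded macrophage markers in TAM 2 of these libraries and in CT26 TAM 1 (4815 and 1559 CPM). In pDC grown with Ptgs+/+ cells, neutrophil markers exceeded those of plasmacytoid dendritic cells. These classes are called by the authors' names without a check of their identity beyond these sums.

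When oxygen is plentiful, prolyl hydroxylases mark HIF1A for destruction. When oxygen is scarce, HIF1A accumulates, pairs with ARNT and binds a short core in the promoters and enhancers of its targets, which bring glucose into the cell, turn it into lactate, slow mitochondrial oxidation and remove mitochondria. In macrophages the same factor can also be raised at the RNA level by inflammatory signals, and its own transcript is not a direct readout of its protein.

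The core of the HIF binding site, ACGTG or GCGTG, was looked for on both strands of the promoters of the members, each taken from 250 bases before to 50 bases after the annotated start. A palindrome CACGTG holds the core on both strands and counts as 2 overlapping matches. RefSeq (GRCm38.p6) gave a promoter for 31 of the 34 genes, and not for Slc2a3, Bnip3l or Ndrg1. The core was present in 26 of these 31 (83.9%), in 12 of 12 HIF targets and in 13 of 18 glycolysis genes (72.2%). Over all promoters of the same length in the table, 14380 of 32851 held it (43.8%). Members with 2 or more matches numbered 20 of 31 (64.5%), against 20.6% of all promoters. Hk1, Gpi1, Aldoa, Tpi1 and Pkm had no match in the window. Only the first promoter listed for each member was searched, and other starts of a gene were not. Both cores contain the bases CG, and the members were not compared with promoters of like base composition. A match describes the letters of the promoter and is not evidence of binding.

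Promoters are shown for the 4 members with the largest folds of NK-depleted Ptgs-/- over Ptgs+/+ tumours in the macrophage cluster TAM 1, Egln3, Ero1l, Slc2a1 and Bnip3, and for Ldha, which had 7 matches. Capitals mark each core, read on the gene's strand or, as CACGT or CACGC, on the other. Egln3 lies at chr12:54203825-54204124 on the minus strand and has 1 core, 229 bases before the start. Ero1l, which the reference lists as Ero1a, lies at chr14:45318523-45318822 (minus strand) and has 3. Bnip3 lies at chr7:138909457-138909756 (minus strand) and has 5. Slc2a1 lies at chr4:119108495-119108794 (plus strand) and has 2, and Ldha at chr7:46845554-46845853 (plus strand).
Egln3: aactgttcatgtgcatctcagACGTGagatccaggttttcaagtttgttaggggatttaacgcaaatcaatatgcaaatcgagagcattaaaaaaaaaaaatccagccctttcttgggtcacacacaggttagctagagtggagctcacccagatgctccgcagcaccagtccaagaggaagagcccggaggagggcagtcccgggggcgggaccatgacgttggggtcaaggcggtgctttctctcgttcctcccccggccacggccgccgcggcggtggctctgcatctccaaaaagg
Ero1l: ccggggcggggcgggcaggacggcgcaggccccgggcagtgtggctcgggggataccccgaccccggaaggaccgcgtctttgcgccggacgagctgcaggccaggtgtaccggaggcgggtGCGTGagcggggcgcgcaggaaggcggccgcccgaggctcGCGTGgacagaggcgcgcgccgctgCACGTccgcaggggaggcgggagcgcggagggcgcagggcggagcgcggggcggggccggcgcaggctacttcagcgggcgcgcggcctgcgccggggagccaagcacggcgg
Bnip3: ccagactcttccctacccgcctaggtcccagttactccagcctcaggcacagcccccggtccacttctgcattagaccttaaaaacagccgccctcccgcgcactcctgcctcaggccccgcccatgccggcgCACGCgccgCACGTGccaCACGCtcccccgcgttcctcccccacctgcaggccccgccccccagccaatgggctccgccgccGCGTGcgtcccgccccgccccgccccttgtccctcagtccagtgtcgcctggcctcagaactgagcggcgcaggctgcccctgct
Slc2a1: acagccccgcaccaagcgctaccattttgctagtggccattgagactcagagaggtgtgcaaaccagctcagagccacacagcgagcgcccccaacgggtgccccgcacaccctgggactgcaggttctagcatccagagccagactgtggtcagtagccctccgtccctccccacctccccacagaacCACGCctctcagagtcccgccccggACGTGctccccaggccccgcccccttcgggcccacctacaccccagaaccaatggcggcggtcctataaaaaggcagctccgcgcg
Ldha: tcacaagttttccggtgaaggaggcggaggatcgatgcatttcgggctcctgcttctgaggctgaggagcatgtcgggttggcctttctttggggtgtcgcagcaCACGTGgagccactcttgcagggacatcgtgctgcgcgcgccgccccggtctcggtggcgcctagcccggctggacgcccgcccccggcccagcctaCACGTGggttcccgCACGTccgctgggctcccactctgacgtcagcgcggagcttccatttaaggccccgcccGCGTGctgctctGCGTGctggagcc

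The members were unevenly spread over the immune classes of the 5555 tumours, and the authors' macrophage cluster TAM 3 stood at the top. A module level was taken as the mean over member genes of log2(mean CPM of the class + 5). For the 14 HIF targets it was 8.78 in NK-depleted Ptgs-/- tumours, 8.46 in Ptgs-/- tumours and 8.28 in Ptgs+/+ tumours in TAM 3, the first rank among the 13 or 14 classes of each library. TAM 3 exceeded the mean of TAM 1, TAM 2 and TAM 4 by 1.65, 1.30 and 1.63 in the same order of libraries, and each of the 14 HIF targets was higher in TAM 3 than in each other TAM cluster in all 3 libraries. For the 19 glycolysis genes the TAM 3 level was 8.69, 8.55 and 8.60, which exceeded the other TAM clusters by 0.82, 0.65 and 1.02, and 15, 15 and 16 of the 19 genes were higher there. Since clusters were formed from these transcriptomes, which contain the members, this is a description and not a test.

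**Figure D1:**
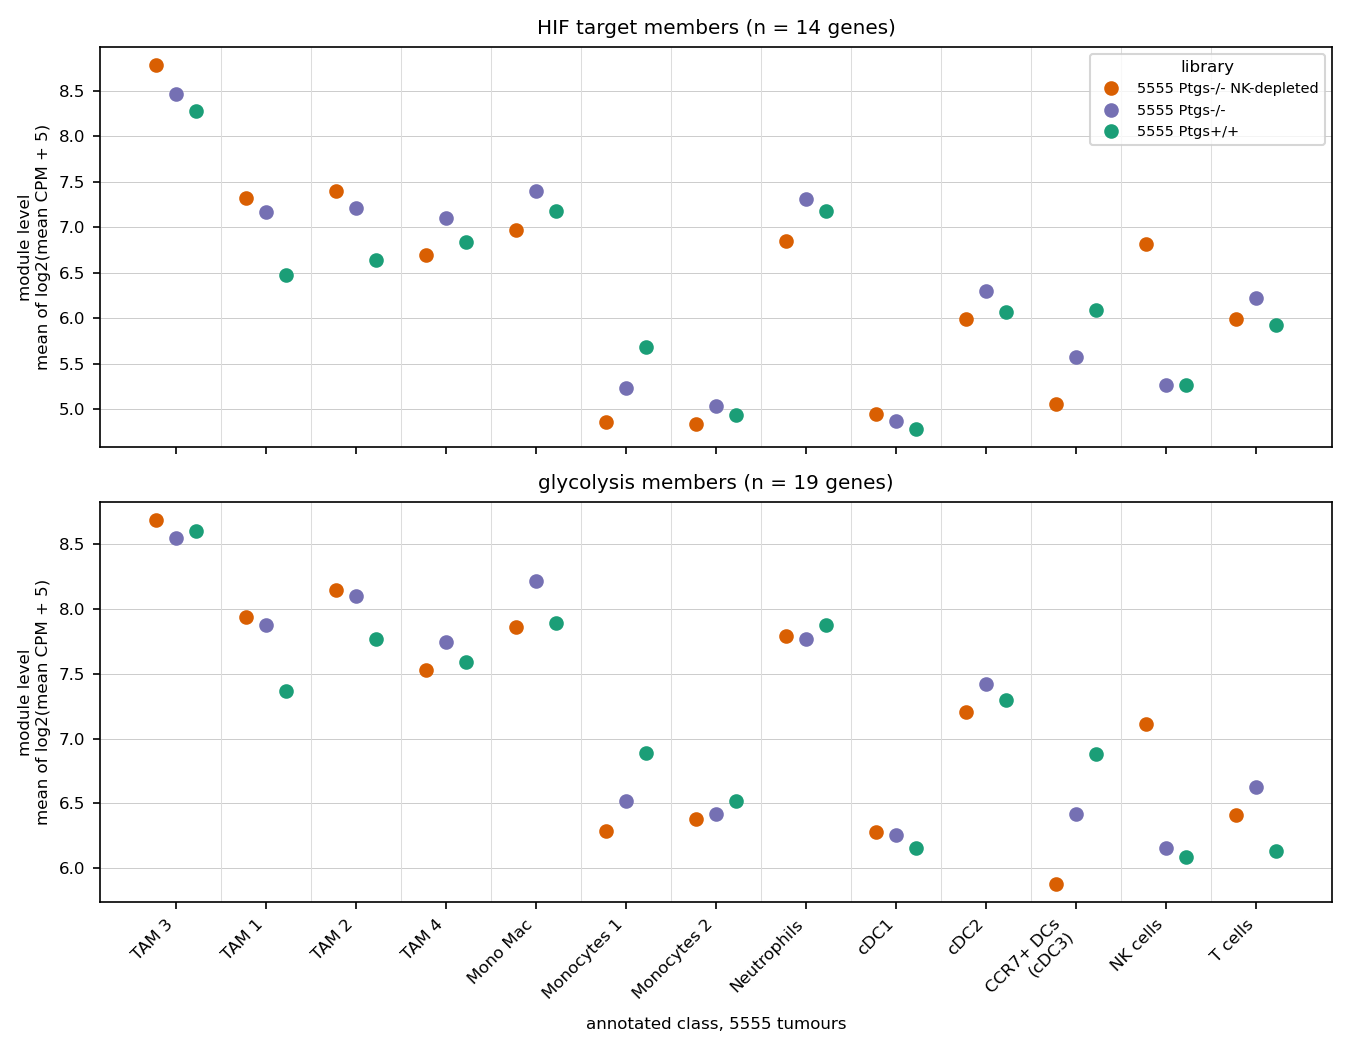
Module level, the mean over genes of log2(mean CPM + 5), of the 14 HIF targets (top) and of the 19 glycolysis genes (bottom) in annotated classes of the 5555 tumours. Each point is 1 library, drawn from left to right as NK-depleted Ptgs-/-, Ptgs-/- and Ptgs+/+; in TAM 3 the HIF targets reach 8.78, 8.46 and 8.28.

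TAM 3 was a small population with a large part of the transcripts of some members. It held 301 cells in the NK-depleted Ptgs-/- library, 498 in the Ptgs-/- library and 230 in the Ptgs+/+ library, and 5.36%, 7.75% and 5.66% of all UMIs. Of the UMIs of Egln3, the prolyl hydroxylase that is itself induced by HIF, 31.5% (exact binomial interval 29.2 to 33.8), 33.6% (31.6 to 35.6) and 45.7% (41.6 to 49.7) came from it. Of those of Ero1l, an oxidase of the endoplasmic reticulum that forms disulfide bonds, 32.9%, 32.5% and 34.5% did. The vasodilator peptide gene Adm was rare, with 86, 92 and 15 UMIs in whole libraries, and 51.2%, 56.5% and 40.0% of them lay in TAM 3. Most other members had smaller shares there, such as Gapdh with 13.7%, 13.1% and 12.6%. Hif1a, with 5.61%, 7.03% and 6.25%, lay near the cluster's share of all UMIs, and Pfkfb4, with 3.23%, 5.28% and 4.33%, below it. With each cell thinned to 2000 UMIs, a TAM 3 cell showed on average 7.18 of the 14 HIF targets in NK-depleted Ptgs-/- tumours, 6.62 in Ptgs-/- tumours and 5.88 in Ptgs+/+ tumours. A TAM 1 cell showed 3.85, 3.72 and 2.58. Before thinning the means were 9.07, 8.28 and 7.07 in TAM 3, and 6.94, 6.76 and 4.77 in TAM 1.

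Among the HIF targets, 4 had the widest range between classes, measured as the log2 difference of the highest and the lowest class and averaged over the 4 tumour libraries. They were Bnip3 (6.18), which marks mitochondria for removal, Ndrg1 (6.15), a stress-response gene, Hilpda (5.86), which blocks the breakdown of lipid droplets, and Egln3 (5.08). Some lowest classes were at 0 CPM, such as B cells of Ptgs-/- tumours for Bnip3 and Ndrg1, so that the added 5 CPM limits the range. Bnip3 in TAM 3 stood at 1260 CPM in NK-depleted Ptgs-/- tumours, 940 CPM in Ptgs-/- tumours and 772 CPM in Ptgs+/+ tumours, while in Monocytes 1 it stood at 31.5, 47.0 and 80.9 CPM. Ndrg1 in TAM 3 had 1302, 938 and 1026 CPM in that order, and in Monocytes 1 42.5, 47.4 and 109 CPM. The monocyte cluster was thus far below TAM 3 in every library for both genes. Hilpda had a second high class: neutrophils carried 727 CPM in NK-depleted Ptgs-/- tumours, 841 CPM in Ptgs-/- tumours and 1275 CPM in Ptgs+/+ tumours, beside 927, 761 and 1088 CPM in TAM 3. Neutrophil values rest on few molecules, with median depths of 966, 1156 and 842 UMIs per cell in the same order of libraries.

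The transporters and regulators differed in where they were highest. Slc2a1, the main glucose importer of most cells, reached 935 CPM in NK-depleted Ptgs-/- tumours, 564 CPM in Ptgs-/- tumours and 513 CPM in Ptgs+/+ tumours in TAM 3, and 12.8, 9.33 and 18.9 CPM in cDC3. Slc2a3, a high-affinity glucose importer, was highest in neutrophils, at 229, 141 and 303 CPM, with at most 43.3 CPM in TAM 3. Slc16a3, which exports lactate, was also highest in neutrophils, at 1070, 858 and 1419 CPM, against 370, 526 and 401 CPM in TAM 3. Pfkfb3 makes the activator of phosphofructokinase and was highest in cDC3, the CCR7+ dendritic cells, at 383, 288 and 429 CPM, above its 212, 193 and 284 CPM in TAM 3. TAM 3 was the highest class for 12 of the 19 glycolysis genes in NK-depleted Ptgs-/- tumours, 13 in Ptgs-/- tumours and 13 in Ptgs+/+ tumours, and for 14, 12 and 10 of the 14 HIF targets. Pgk1, which makes ATP within glycolysis, was among them with 2948, 2393 and 1902 CPM in TAM 3 and 223, 290 and 367 CPM in Monocytes 1. Among the enzymes the range between classes was widest for Hk2 (5.21), which traps glucose in the cell, Eno1 (3.98), Tpi1 (3.80) and Pgam1 (3.72). Hif1a itself varied less than these, with a range of 2.37. This was close to Higd1a (2.41) and Bnip3l (2.31), and Adm (1.90) varied less.

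**Figure D2:**
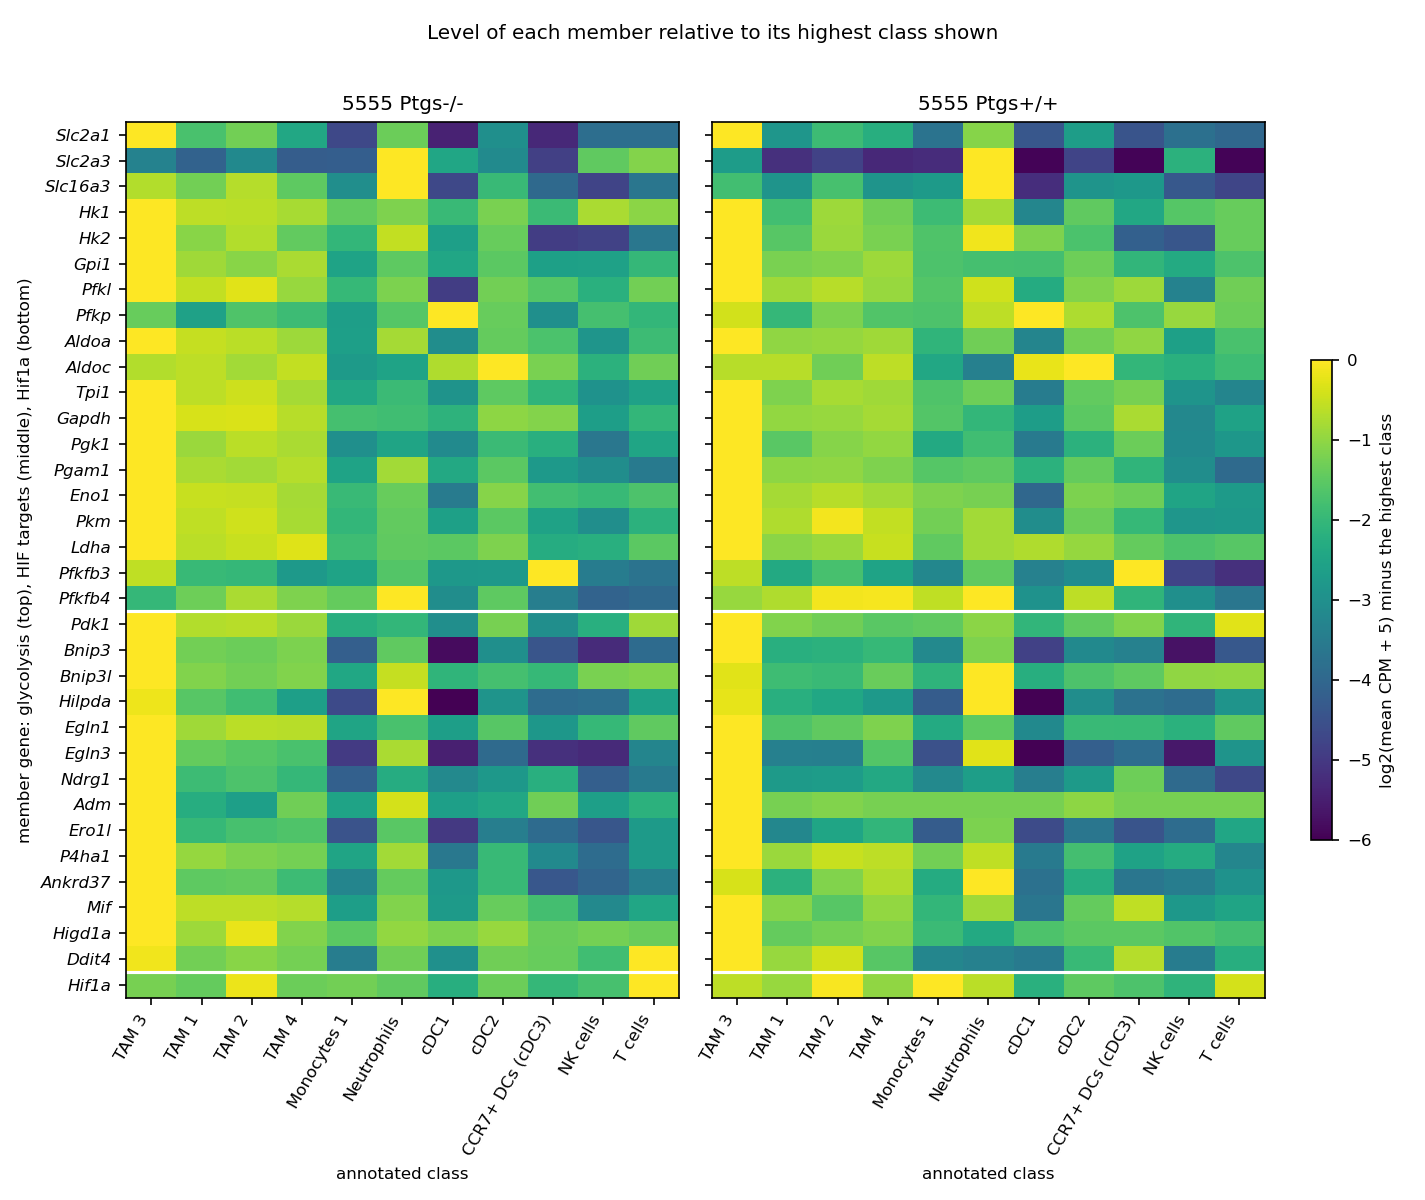
Level of each member in each class of Ptgs-/- tumours (left) and Ptgs+/+ tumours (right), as log2(mean CPM + 5) minus the value of the class shown in which the gene is highest. The brightest cells lie in TAM 3 for most HIF targets and enzymes, in neutrophils for Slc2a3 and Slc16a3 and in cDC3 for Pfkfb3.

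Which members differed with prostaglandin synthesis by the tumour was asked by setting Ptgs-/- tumours beside Ptgs+/+ tumours class by class. In the macrophage cluster TAM 1 most members were higher in Ptgs-/- tumours, among them the prolyl hydroxylases, the glucose importer Slc2a1 and enzymes from several steps of glycolysis. Hif1a and Ddit4, an inhibitor of mTORC1, were lower. A fold is the difference of log2(mean CPM + 5), and a member was counted when it passed 1.5-fold, among genes with a UMI in 5% or more of the cells on one side or the other. TAM 1 held 932 cells in Ptgs-/- tumours and 609 in Ptgs+/+ tumours. Of 13 HIF targets tested, 10 were higher and 1 lower, with a median log2 fold of 0.83. Of 18 glycolysis genes, 9 were higher and 0 lower, with a median of 0.58. Of all 8234 genes tested in TAM 1, 8.84% were higher and 7.25% lower, with a median of 0.01.

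Egln3 led with 138 CPM in Ptgs-/- tumours, against 28.1 CPM in Ptgs+/+ tumours (log2 fold 2.11), in TAM 1. Its 843 and 94 UMIs gave a ratio of 5.07 per UMI sequenced, with an exact 95% counting interval of 4.09 to 6.34. Ero1l had 291 CPM in Ptgs-/- tumours and 101 CPM in Ptgs+/+ tumours (log2 fold 1.48, UMI ratio 2.81, interval 2.51 to 3.16). The intervals of both genes lie well above 1. Pdk1, the kinase that closes the entry of pyruvate into mitochondria, had 92.9 CPM in Ptgs-/- tumours and 34.5 CPM in Ptgs+/+ tumours (log2 fold 1.31, ratio 2.46, 2.02 to 3.01). Slc2a1 had 167 CPM in Ptgs-/- tumours and 67.1 CPM in Ptgs+/+ tumours (log2 fold 1.25, ratio 2.50, 2.17 to 2.90). The other higher HIF targets were Bnip3, its relative Bnip3l, Egln1, Ndrg1, the collagen prolyl hydroxylase subunit P4ha1, Ankrd37 and the cytokine gene Mif, at log2 folds from 0.71 for Ndrg1 to 1.20 for Bnip3.

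The glycolytic enzymes of TAM 1 divided. Hk2 (203 CPM in Ptgs-/- tumours, 98.8 CPM in Ptgs+/+ tumours), Tpi1 (692 and 345 CPM), Pgk1 (1288 and 651 CPM) and Gpi1 (653 and 336 CPM), which lie at different steps of the pathway, had log2 folds of 1.01, 1.00, 0.98 and 0.95. Hk1, Pgam1, Ldha, which makes lactate, and the exporter Slc16a3 also passed 1.5-fold. Gapdh had 1924 CPM in Ptgs-/- tumours and 2069 CPM in Ptgs+/+ tumours (log2 fold -0.10), Eno1 had 300 and 301 CPM (0.00), and Pkm 1112 and 1040 CPM (0.10). These enzymes stayed within 1.5-fold. Pfkfb3 had a fold of -0.18 and Pfkfb4 of 0.14.

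Hif1a and Ddit4 stood on the other side in TAM 1. Hif1a had 166 CPM in Ptgs-/- tumours and 368 CPM in Ptgs+/+ tumours (log2 fold -1.12, UMI ratio 0.470, interval 0.433 to 0.511). Ddit4 had 29.2 CPM in Ptgs-/- tumours and 144 CPM in Ptgs+/+ tumours (log2 fold -2.13, ratio 0.203, 0.171 to 0.242). The RNA of the factor and the RNAs of most of its targets thus differed in opposite directions between these libraries. Genes of the HIF pathway that are no members gave 2 higher and 0 lower of 8, with Vhl, the ubiquitin ligase subunit that binds hydroxylated HIF, at 0.75 and its scaffold Cul2 at 0.59.

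Other gene lists show how far the pattern reached in TAM 1. Of 15 further HIF-responsive genes tested, 8 were higher and 1 lower, with a median of 0.59. P4ha2, a relative of P4ha1, had 26.5 CPM in Ptgs-/- tumours and 3.89 CPM in Ptgs+/+ tumours (1.83), the adenylate kinase Ak4 20.5 and 3.43 CPM (1.59), and the haem oxygenase Hmox1, which also answers to NRF2, 1777 and 3064 CPM (-0.78). Of 13 genes of the citrate cycle and pyruvate entry, 0 were higher and 0 lower (median 0.00), and of 7 genes of the pentose phosphate pathway 0 were higher and 1 lower (median -0.27). At 2000 UMIs per cell, 35.8% of TAM 1 cells of Ptgs-/- tumours and 14.9% of those of Ptgs+/+ tumours showed 5 or more of the 14 HIF targets. Unthinned, the shares were 74.1% and 47.3%.

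Neutrophil transcripts moved with the same comparison. The summed CPM of 9 neutrophil markers in TAM 1, none of which was at 0, was 166 in Ptgs-/- tumours and 1566 in Ptgs+/+ tumours. The 8 macrophage markers summed to 12160 CPM in Ptgs-/- tumours and 8157 CPM in Ptgs+/+ tumours, and the 6 monocyte markers to 3261 and 1678 CPM. Cells with a UMI of S100a8 or S100a9, 2 neutrophil genes, made up 5.15% of TAM 1 in Ptgs-/- tumours and 11.2% in Ptgs+/+ tumours. Without them, 9 glycolysis genes and 10 HIF targets passed 1.5-fold upward, as many as with them. Transcripts of other neutrophil genes in the cells that stayed were not removed. The part of the neutrophil, macrophage and monocyte markers in the result was not tested.

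TAM 2, with 240 cells in Ptgs-/- tumours and 678 in Ptgs+/+ tumours, gave a similar picture. Of 13 HIF targets 9 were higher and 1 lower (median 0.83), and of 18 glycolysis genes 8 were higher and 1 lower (median 0.46). Of all 6835 genes tested in TAM 2, 1130 (16.5%) were higher and 760 lower. Egln3 had 124 CPM in Ptgs-/- tumours and 27.7 CPM in Ptgs+/+ tumours (log2 fold 1.98, UMI ratio 4.47, 3.24 to 6.21). Pdk1 had 96.2 CPM in Ptgs-/- tumours and 30.4 CPM in Ptgs+/+ tumours (1.52, ratio 3.07, 2.23 to 4.24), Mif 870 and 345 CPM (1.32), and Bnip3 365 and 172 CPM (1.07). On the lower side stood Ddit4 (-2.41), Pfkfb3 (-0.84, with 67.5 CPM in Ptgs-/- tumours and 125 CPM in Ptgs+/+ tumours), Hif1a (-0.74) and Pkm (-0.41, within 1.5-fold). Members higher past 1.5-fold in both clusters numbered 15, of 19 in TAM 1 and 17 in TAM 2. Both clusters come from the same pair of libraries and are not separate replicates. Neutrophil markers in TAM 2 summed to 183 CPM in Ptgs-/- tumours and 1725 CPM in Ptgs+/+ tumours.

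In TAM 3, the class with the highest module levels, the libraries were closer. After removal of a shift of 0.13 over all genes, 4 of 14 HIF targets were higher and 2 lower (median 0.12), and of 18 glycolysis genes 0 were higher and 2 lower (median -0.04). Of all genes tested in TAM 3, 14.0% were higher and 13.6% lower. The share of HIF targets that were higher lay above this background, that of HIF targets that were lower near it, and both shares of glycolysis genes below it. The glycolysis median changed sign under 4 alternatives, reaching 0.09 without centring. Neutrophil markers in TAM 3 summed to 110 CPM in Ptgs-/- tumours and 1172 CPM in Ptgs+/+ tumours. P4ha1 had 465 CPM in Ptgs-/- tumours and 223 CPM in Ptgs+/+ tumours (log2 fold 0.92, UMI ratio 2.11, 1.79 to 2.51), Pdk1 152 and 82.1 CPM (0.72), and Ankrd37 150 and 87.9 CPM (0.61). Egln3, the leader in TAM 1, had 379 CPM in Ptgs-/- tumours and 340 CPM in Ptgs+/+ tumours here. Lower were Ddit4, with 71.3 CPM in Ptgs-/- tumours and 277 CPM in Ptgs+/+ tumours (-2.01), Hif1a, with 190 and 462 CPM (-1.39), Gapdh, with 2474 and 4072 CPM (-0.85), and Pfkfb3, with 193 and 284 CPM (-0.67).

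**Figure D3:**
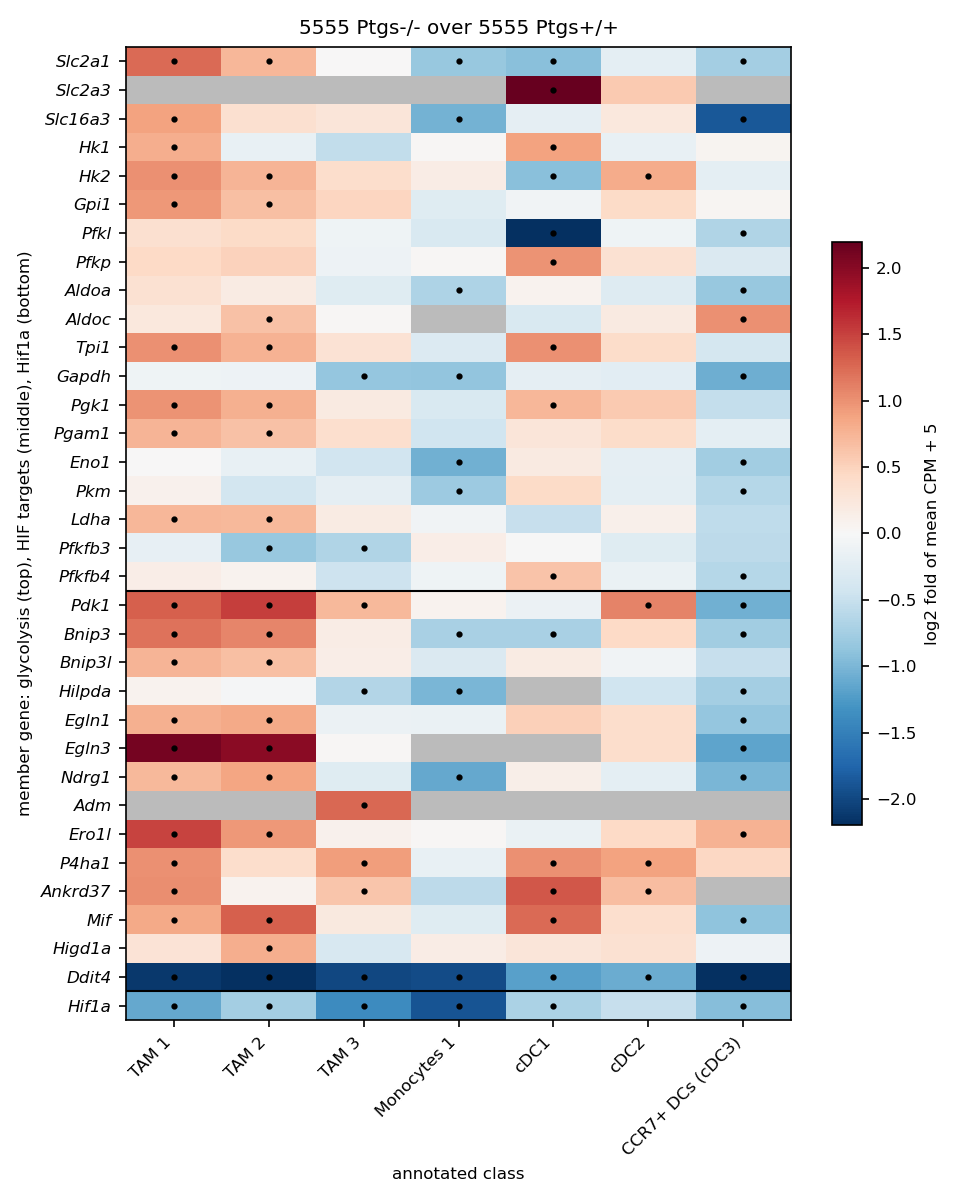
Log2 fold of each member, Ptgs-/- over Ptgs+/+ tumours, in 7 classes, as a difference of log2(mean CPM + 5). Dots mark folds past 1.5-fold and grey marks genes seen in under 5% of cells; TAM 1 and TAM 2 are mostly positive, Monocytes 1 and cDC3 mostly negative, and Ddit4 is negative in all 7 classes.

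Over all monocytes and macrophages together, 3184 cells of Ptgs-/- tumours and 2360 of Ptgs+/+ tumours, 6 of 13 HIF targets were higher and 1 lower (median 0.53), and 5 of 18 glycolysis genes were higher and 0 lower (median 0.27), beside 8.46% of all genes higher. Among all 7691 genes tested in these cells, 505 were lower. Pdk1 had 79.0 CPM in Ptgs-/- tumours and 33.0 CPM in Ptgs+/+ tumours (1.15), Egln3 130 and 61.6 CPM (1.02), Bnip3 368 and 200 CPM (0.86), and Ero1l 381 and 211 CPM (0.84). Hif1a had 200 CPM in Ptgs-/- tumours and 495 CPM in Ptgs+/+ tumours (-1.29), and Ddit4 27.5 and 137 CPM (-2.12). Cluster sizes differ between the libraries and enter these values. Neutrophil markers summed to 183 CPM in Ptgs-/- tumours and 1382 CPM in Ptgs+/+ tumours in these cells, and macrophage markers to 8444 and 5025 CPM. Without cells with a UMI of S100a8 or S100a9, 6 HIF targets were higher, as many as with them. Other neutrophil transcripts stayed in, and the part of these markers was not tested.

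Monocytes 1 went the other way. Of 12 HIF targets 0 were higher and 4 lower (median -0.29), and of 17 glycolysis genes 0 were higher and 6 lower (median -0.33), in 695 cells of Ptgs-/- tumours and 226 of Ptgs+/+ tumours, with 7.96% of all genes lower. Hif1a had 184 CPM in Ptgs-/- tumours and 702 CPM in Ptgs+/+ tumours (log2 fold -1.90, UMI ratio 0.265, 0.239 to 0.293), the widest gap of the gene. Ndrg1 had 47.4 CPM in Ptgs-/- tumours and 109 CPM in Ptgs+/+ tumours (-1.12), Eno1 109 and 233 CPM (-1.06), and Slc16a3 99.5 and 210 CPM (-1.04). Neutrophil markers summed to 152 CPM in Monocytes 1 of Ptgs-/- tumours and 627 CPM in those of Ptgs+/+ tumours.

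Dendritic cells differed by subset. In cDC2, 523 cells of Ptgs-/- tumours and 379 of Ptgs+/+ tumours, 3 of 13 HIF targets were higher and 1 lower (median 0.39), and 1 of 19 glycolysis genes was higher and 0 lower (median 0.11). Of all genes tested in cDC2, 10.7% were higher, a smaller share than among the HIF targets and a larger one than among the glycolysis genes. Of the same 8697 genes, 658 were lower. The sum of neutrophil markers in cDC2 was 289 CPM in Ptgs-/- tumours and 1412 CPM in Ptgs+/+ tumours. Pdk1 had 61.7 CPM in Ptgs-/- tumours and 26.3 CPM in Ptgs+/+ tumours (1.09, UMI ratio 2.04, 1.58 to 2.65), P4ha1 117 and 60.6 CPM (0.89), Hk2 161 and 88.8 CPM (0.82), and Ankrd37 34.7 and 19.8 CPM (0.68). Ddit4 was lower (-1.10), and Hif1a had 173 CPM in Ptgs-/- tumours and 247 CPM in Ptgs+/+ tumours (-0.51), within 1.5-fold. In cDC1 there were 33 cells in Ptgs-/- tumours and 38 in Ptgs+/+ tumours, and HIF target levels were 4.87 and 4.78. Of 11 HIF targets 3 were higher and 2 lower (median 0.18), and of 19 glycolysis genes 6 were higher and 3 lower (median 0.07), while 27.6% of all genes were higher and 21.8% lower in these few cells. The counting intervals left out 1 for the higher Pfkp, Pgk1 and Mif and for the lower Pfkl and Hif1a. Slc2a1, Hk2 and Bnip3, which were higher in TAM 1, were lower in cDC1 with intervals that included 1. In these cells neutrophil markers summed to 1438 CPM in Ptgs-/- tumours and 268 CPM in Ptgs+/+ tumours, and their part in the cDC1 and cDC2 values was not tested.

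In cDC3 members were lower in Ptgs-/- tumours. Of 12 HIF targets 1 was higher and 8 lower (median -0.81; 5 were lower with means of log2 values per cell), and of 18 glycolysis genes 1 was higher and 8 lower (median -0.56). The class is small, with 58 cells in Ptgs-/- tumours and 54 in Ptgs+/+ tumours. Of all 7849 genes tested in cDC3, 1861 (23.7%) were lower past 1.5-fold. Another 1880 were higher, a larger share than among the members. Slc16a3 had 50.9 CPM in Ptgs-/- tumours and 198 CPM in Ptgs+/+ tumours (-1.86), from 25 and 60 UMIs (ratio 0.324, 0.194 to 0.524). Gapdh had 1143 CPM in Ptgs-/- tumours and 2403 CPM in Ptgs+/+ tumours (-1.07, ratio 0.553, 0.493 to 0.620), and Ddit4 26.6 and 173 CPM (-2.50). For Pdk1 (-1.06, from 7 and 9 UMIs) and for the higher Aldoc (1.01, from 8 and 3 UMIs) the counting interval of the ratio included 1. The 8 members higher in TAM 1 and lower in cDC3 were Slc2a1, Slc16a3, Pdk1, Bnip3, Egln1, Egln3, Ndrg1 and Mif. In cDC3 the counting intervals of Slc16a3, Ndrg1 and Mif left out 1, and those of the other 5 included it. Markers of CCR7+ dendritic cells summed to 12616 CPM in cDC3 of Ptgs-/- tumours and 9886 CPM in those of Ptgs+/+ tumours, and neutrophil markers to 85.7 and 346 CPM, with 5 of 9 at 0 in Ptgs-/- tumours and 3 of 9 in Ptgs+/+ tumours. Cells with a UMI of S100a8 or S100a9 made up 3.45% of cDC3 in Ptgs-/- tumours and 14.8% in Ptgs+/+ tumours, and without them 6 of 11 HIF targets were lower. The part of the neutrophil and CCR7+ markers in the result was not tested.

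NK depletion was set against Ptgs-/- tumours with NK cells. Over all monocytes and macrophages, 3108 cells of NK-depleted Ptgs-/- tumours and 3184 of Ptgs-/- tumours, most members were slightly lower. Of 32 members tested, 2 had a fold above 0. With equal weight per cluster the HIF target median was 0.04. Of 13 HIF targets 0 were higher and 2 lower (median -0.32), and of 18 glycolysis genes 0 were higher and 1 lower (median -0.37), where 1.29% of all genes were lower. Eno1 had 133 CPM in NK-depleted Ptgs-/- tumours and 264 CPM in Ptgs-/- tumours (-0.96, UMI ratio 0.499, 0.475 to 0.524), Hilpda 167 and 261 CPM (-0.63), and Egln3 83.2 and 130 CPM (-0.61). Hif1a had 201 CPM in NK-depleted Ptgs-/- tumours and 200 CPM in Ptgs-/- tumours (0.01). Monocytes 1, a class low in the members, held 1108 cells in NK-depleted Ptgs-/- tumours and 695 in Ptgs-/- tumours, and TAM 1 held 483 and 932.

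Within TAM 3 the same comparison ran upward by a small amount. Of 14 HIF targets 1 was higher and 0 lower (median 0.30), and of 18 glycolysis genes 1 was higher and 0 lower (median 0.15). Of all 6848 genes tested in TAM 3, 343 (5.01%) were higher, a share near those of the members, and 654 were lower. Ddit4 had 134 CPM in NK-depleted Ptgs-/- tumours and 71.3 CPM in Ptgs-/- tumours (0.87, UMI ratio 2.05, 1.60 to 2.62). Slc2a1 had 935 CPM in NK-depleted Ptgs-/- tumours and 564 CPM in Ptgs-/- tumours (0.72, ratio 1.60, 1.47 to 1.74). Ankrd37 (0.52) and Ndrg1 (0.47) stayed within 1.5-fold, as did Slc16a3 on the lower side (-0.50). In cDC3, 45 cells against 58, 2 of 11 HIF targets were higher and 5 lower (median -0.47), and 1 of 17 glycolysis genes was higher and 9 lower (median -0.60), with 19.9% of all genes lower. Of all 7757 genes tested there, 1688 were higher, a share near that of the HIF targets that were higher. Eno1 had 5.66 CPM in cDC3 of NK-depleted Ptgs-/- tumours, from 2 UMIs, and 119 CPM in those of Ptgs-/- tumours, from 53 (ratio 0.0512, 0.00604 to 0.194). Bnip3 (-1.61, ratio 0.214, 0.0406 to 0.727) and Higd1a (-1.54, ratio 0.347, 0.161 to 0.684), a mitochondrial protein gene, were also lower there.

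NK-depleted Ptgs-/- tumours can also be set beside Ptgs+/+ tumours, which shares the Ptgs+/+ library with the comparison above and is therefore not a repeat of it. In TAM 1, 10 of 13 HIF targets were higher and 1 lower (median 0.95), and 10 of 18 glycolysis genes were higher and 1 lower (median 0.78), with 12.1% of all genes higher. Among the 8354 genes tested in TAM 1, 701 were lower. Egln3 had 173 CPM in NK-depleted Ptgs-/- tumours and 28.1 CPM in Ptgs+/+ tumours (2.42), Ero1l 427 and 101 CPM (2.03), Slc2a1 197 and 67.1 CPM (1.48), and Bnip3 466 and 163 CPM (1.48). Hif1a had 198 CPM in NK-depleted Ptgs-/- tumours and 368 CPM in Ptgs+/+ tumours (-0.87), and Eno1, which was level in Ptgs-/- tumours, had 197 and 301 CPM (-0.60). In Monocytes 1, 0 of 12 HIF targets were higher and 7 lower (median -0.85), and 0 of 17 glycolysis genes were higher and 10 lower (median -0.70), with 8.92% of all genes lower. Hilpda had 14.1 CPM in Monocytes 1 of NK-depleted Ptgs-/- tumours and 62.5 CPM in those of Ptgs+/+ tumours (-1.82). In cDC3, 0 of 12 HIF targets were higher and 8 lower (median -1.27, or -0.96 with Egln3, at 0 UMIs in the NK-depleted library, set to the floor of 3 UMIs), and 1 of 18 glycolysis genes was higher and 10 lower (median -1.05), with 24.5% of all genes lower. Among the 7567 genes tested in cDC3, 2017 were higher. Gapdh had 523 CPM in cDC3 of NK-depleted Ptgs-/- tumours and 2403 CPM in those of Ptgs+/+ tumours (-2.19, ratio 0.222, 0.185 to 0.265). Neutrophil markers summed to 121 CPM in NK-depleted Ptgs-/- tumours and 1566 CPM in Ptgs+/+ tumours in TAM 1, to 119 and 627 CPM in Monocytes 1, and to 50.1 and 346 CPM in cDC3. Without cells with a UMI of S100a8 or S100a9, 10 HIF targets were higher in TAM 1, as many as with them. The part of neutrophil transcripts left in the other cells was not tested.

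CT26 tumours differ from 5555 Ptgs+/+ tumours in line, mouse strain and day of harvest together, and only they carry the name vehicle. The matrices were also normalized apart, so that these cannot be told apart. Monocytes and macrophages of CT26 tumours, 5180 cells against 2360, had fewer transcripts of the HIF targets and similar amounts of the glycolytic enzymes. Of 13 HIF targets 0 were higher and 9 lower (median -1.08), and of 18 glycolysis genes 0 were higher and 5 lower (median -0.25), with 20.4% of all genes lower and a median over all genes of -0.07. Ddit4 had 8.43 CPM in CT26 tumours and 137 CPM in 5555 Ptgs+/+ tumours (-3.40, UMI ratio 0.0713, 0.0620 to 0.0818). Egln3 had 5.35 CPM in CT26 tumours and 61.6 CPM in 5555 Ptgs+/+ tumours (-2.69, ratio 0.0979, 0.0804 to 0.118). Hilpda had 64.7 CPM in CT26 tumours and 280 CPM in 5555 Ptgs+/+ tumours (-2.03), and Ero1l 63.6 and 211 CPM (-1.65). Within the enzymes the order differed: Tpi1 (0.37), Eno1 (0.36), Pfkp (0.26), which is a phosphofructokinase, and Ldha (0.15) were on the higher side within 1.5-fold. Aldoc had 5.24 CPM in CT26 tumours and 18.7 CPM in 5555 Ptgs+/+ tumours (-1.21), and Pfkfb3 42.9 and 106 CPM (-1.21).

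The further HIF-responsive genes had 0 higher and 8 lower of 12 in the same cells (median -1.21), with Mxi1, a MYC antagonist, at 59.7 CPM in CT26 tumours and 197 CPM in 5555 Ptgs+/+ tumours (-1.64). The highest HIF target level in CT26 tumours was 6.29, in CT26 TAM 1, below the 8.28 of TAM 3 in 5555 Ptgs+/+ tumours. This was the cluster where Ankrd37 had 80.9 CPM and Pgk1 789 CPM. Cluster names were given separately to the tumours, and CT26 TAM 1 is not 5555 TAM 1. At 2000 UMIs per cell, CT26 TAM 1 cells showed on average 2.66 of the 14 HIF targets, while 5555 Ptgs+/+ TAM 3 cells showed 5.88. Neutrophil markers summed to 228 CPM in the monocytes and macrophages of CT26 tumours and 1382 CPM in those of 5555 Ptgs+/+ tumours.

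**Figure D4:**
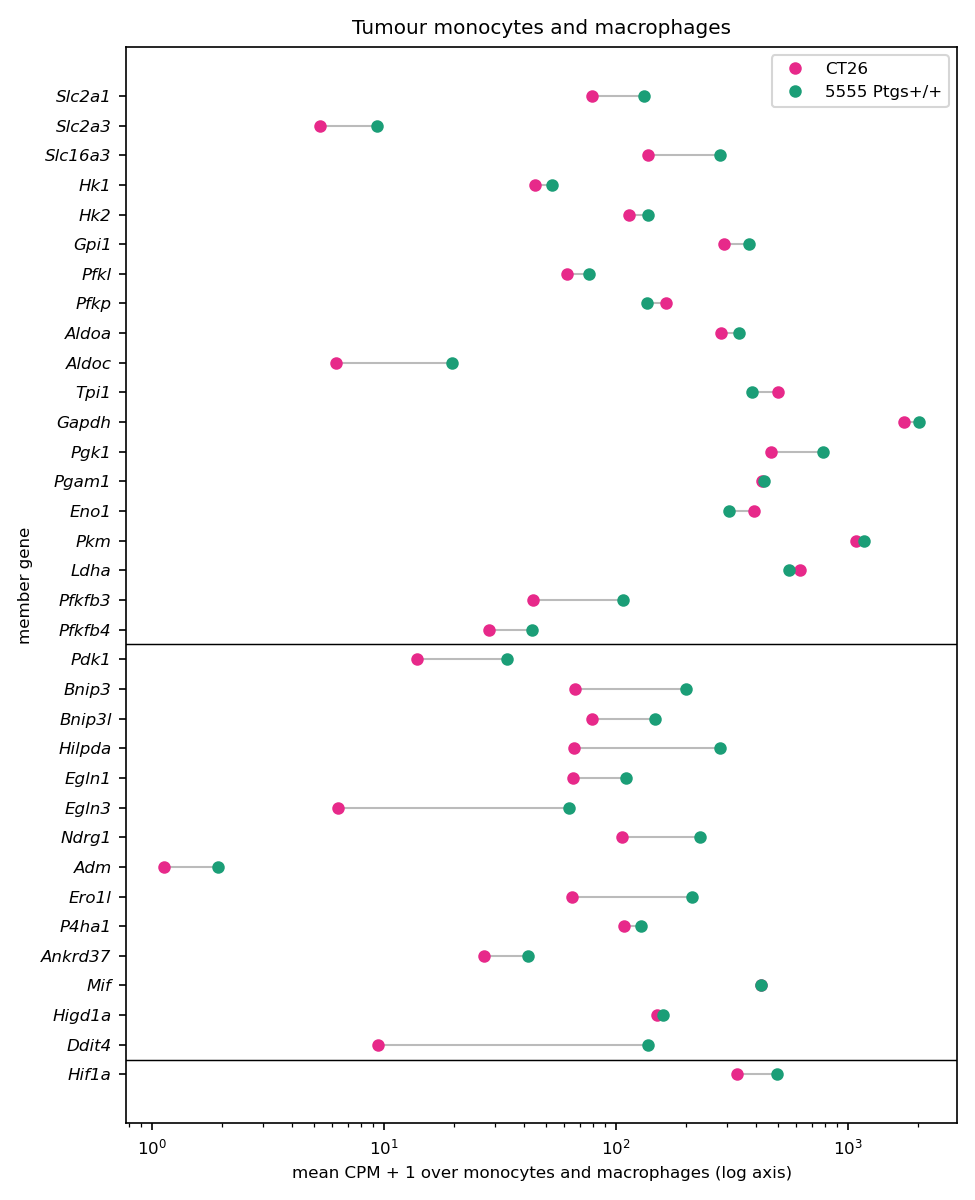
Mean CPM + 1 on a log axis of each member in monocytes and macrophages of CT26 tumours and of 5555 Ptgs+/+ tumours, 1 library each. Egln3 (5.35 and 61.6 CPM) and Ddit4 (8.43 and 137 CPM) lie far apart, while Mif (419 and 419 CPM) and Pkm (1084 and 1171 CPM) nearly coincide.

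The CCR7+ dendritic cells, called actDC in CT26 tumours and cDC3 in 5555 tumours, differed in the same direction. With 112 and 54 cells and a shift of -0.24 removed, 0 of 12 HIF targets were higher and 10 lower (median -1.72, or -1.31 with Egln3 at the floor of 3 UMIs), and 0 of 18 glycolysis genes were higher and 12 lower (median -0.83), with 26.0% of all genes lower. Slc16a3 had 33.6 CPM in CT26 tumours and 198 CPM in 5555 Ptgs+/+ tumours (-2.16, UMI ratio 0.180, 0.103 to 0.303), and Bnip3 10.7 and 70.3 CPM (-2.03). In cDC2, with a shift of -0.17 removed, 0 of 13 HIF targets were higher and 8 lower (median -0.72), and 1 of 18 glycolysis genes was higher and 4 lower (median -0.05), with 17.5% of all genes lower. There Bnip3 had 21.0 CPM in CT26 tumours and 82.2 CPM in 5555 Ptgs+/+ tumours (-1.57) and Ndrg1 48.5 and 151 CPM (-1.38), while Pfkp had 328 and 202 CPM (0.85) on the higher side. Of 13 genes of the citrate cycle and pyruvate entry, 6 were higher and 1 lower in the same cDC2 (median 0.47). Of all 8271 genes tested in cDC2, 1434 were higher. The neutrophil marker sum was 46.5 CPM in actDC of CT26 tumours and 346 CPM in cDC3 of 5555 Ptgs+/+ tumours, and 241 and 1412 CPM in cDC2.

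In culture, dendritic cells grown with tumour cells had more of several members than untreated ones, led by Hilpda, Ddit4, Ero1l and Slc2a3. Shifts over all genes of -0.11 to -0.28 were removed from these folds where they passed 0.1, while UMI ratios are as counted. In cDC1 with Ptgs+/+ 5555 cells, 1111 cells against 1165 untreated, 7 of 13 HIF targets were higher and 0 lower (median 0.61; 12 were higher with means of log2 values per cell and 4 without removal of the shift), and 5 of 19 glycolysis genes were higher and 0 lower (median 0.33), with 7.36% of all genes higher. Hilpda had 124 CPM with Ptgs+/+ cells and 23.7 CPM untreated (log2 fold 2.40, UMI ratio 4.82, 4.21 to 5.53). Ddit4 had 85.8 CPM with Ptgs+/+ cells and 20.6 CPM untreated (2.06, ratio 3.77, 3.25 to 4.38). Slc2a3 had 102 CPM with Ptgs+/+ cells and 44.1 CPM untreated (1.35), and Ero1l 149 and 74.4 CPM (1.19). Pfkp had 278 CPM with Ptgs+/+ cells and 473 CPM untreated (-0.52). Hif1a was nearly level, at 43.8 CPM with Ptgs+/+ cells and 48.0 CPM untreated.

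In cDC2 with Ptgs+/+ cells, 8 of 13 HIF targets were higher and 0 lower (median 0.65), and 2 of 19 glycolysis genes were higher and 0 lower (median 0.35), with 3.76% of all genes higher. Hilpda had 102 CPM with Ptgs+/+ cells and 28.1 CPM untreated (1.81), and Ero1l 256 and 99.9 CPM (1.43, ratio 2.35, 2.17 to 2.55). In mDC, the CCR7+ dendritic cells of the cultures, 1060 cells with Ptgs+/+ cells and 214 untreated, 4 of 13 HIF targets were higher and 0 lower (median 0.51), and 5 of 18 glycolysis genes were higher and 0 lower (median 0.25), with 8.56% of all genes higher. Ddit4 had 74.4 CPM with Ptgs+/+ cells and 35.2 CPM untreated (1.26), and Pgk1 947 and 717 CPM (0.68). Hilpda in mDC was at 153 CPM with Ptgs+/+ cells and 78.8 CPM untreated (1.19). Without removal of the shift, the glycolysis median in mDC was -0.02. The neutrophil marker sum was 826 CPM in cDC1 with Ptgs+/+ cells and 432 CPM untreated, 792 and 498 CPM in cDC2, and 405 and 912 CPM in mDC. Its part in these folds was not tested.

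The pDC class showed the most members higher. With Ptgs+/+ cells, 200 cells each, 11 of 13 HIF targets were higher and 0 lower (median 1.28), and 13 of 19 glycolysis genes were higher and 1 lower (median 0.79), with 13.1% of all genes higher. Among the 7117 genes tested in pDC, 1032 were lower. Ero1l had 269 CPM with Ptgs+/+ cells and 68.2 CPM untreated (2.02, UMI ratio 3.24, 2.54 to 4.17), Hilpda 120 and 29.3 CPM (1.98), Ndrg1 154 and 43.7 CPM (1.82), and Ddit4 104 and 29.0 CPM (1.79). Neutrophil markers in pDC summed to 11716 CPM with Ptgs+/+ cells and 1874 CPM untreated, and plasmacytoid DC markers to 4861 and 7413 CPM. The part of these in the result was not tested.

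With Ptgs-/- 5555 cells Hilpda, Ddit4, Slc2a3 and Ero1l again led in cDC1. In cDC1, 5 of 13 HIF targets were higher and 0 lower (median 0.48), and 1 of 19 glycolysis genes was higher and 0 lower (median 0.27), with 4.55% of all genes higher. Hilpda had 81.5 CPM with Ptgs-/- cells and 23.7 CPM untreated (1.75), Ddit4 60.3 and 20.6 CPM (1.51), and Slc2a3 97.6 and 44.1 CPM (1.23). In cDC2, 8 of 13 HIF targets were higher and 0 lower (median 0.65; 5 were higher without removal of the shift and 3 with a pseudocount of 20), and 1 of 19 glycolysis genes was higher and 0 lower (median 0.27), with 3.19% of all genes higher. In mDC, 3 of 13 HIF targets were higher and 0 lower (median 0.45), and of 18 glycolysis genes 0 were higher and 0 lower (median 0.14, or -0.08 without removal of the shift), with 6.49% of all genes higher. In pDC, 312 cells against 200, 10 of 13 HIF targets were higher and 0 lower (median 0.82), and 4 of 19 glycolysis genes were higher and 0 lower (median 0.49), with 7.75% of all genes higher. Ero1l had 236 CPM in pDC with Ptgs-/- cells and 68.2 CPM untreated (1.72, UMI ratio 2.44, 1.91 to 3.14), and neutrophil markers summed to 3829 and 1874 CPM. The untreated condition is shared by these comparisons and those with Ptgs+/+ cells.

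**Figure D5:**
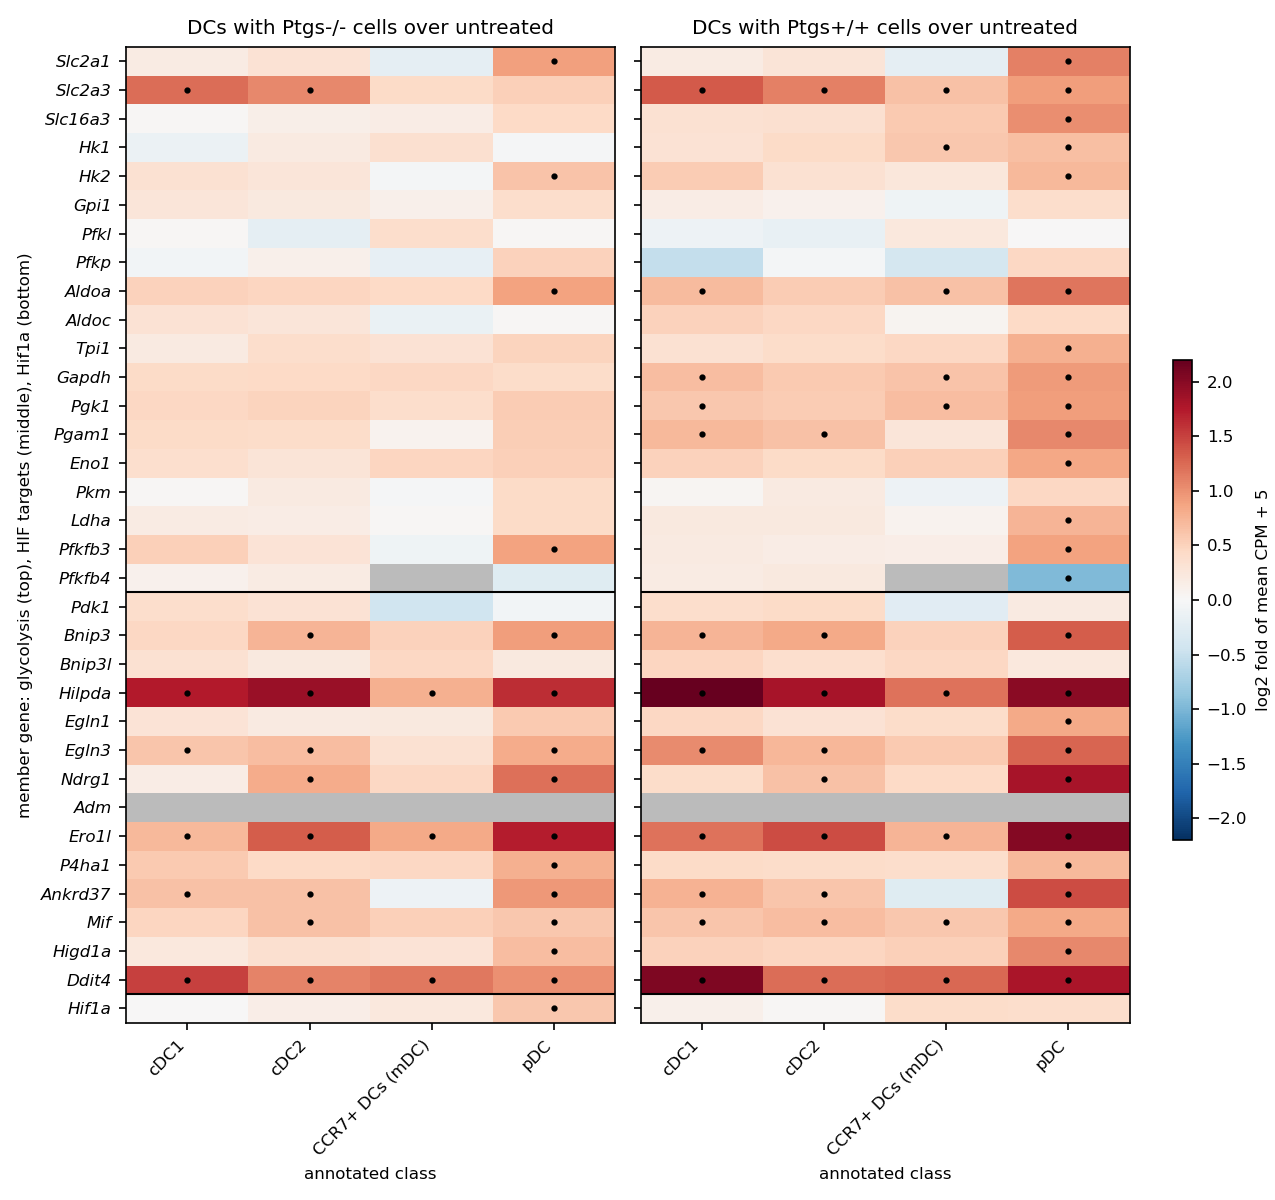
Log2 folds of the members over untreated cells, with shifts of all genes removed where they passed 0.1, in cultures with Ptgs-/- 5555 cells (left) and with Ptgs+/+ 5555 cells (right), for cDC1, cDC2, mDC and pDC. Hilpda and Ddit4 are positive in every class shown of both panels, with Hilpda in cDC1 at 1.75 and 2.40.

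Set directly against each other in cDC1, 1059 cells with Ptgs-/- cells and 1111 with Ptgs+/+ cells, 0 of the HIF targets and 0 of the glycolysis genes passed 1.5-fold in either direction, beside 0.847% of all genes lower (median -0.16 for HIF targets and -0.06 for glycolysis genes). With means of log2 values per cell in place of mean CPM, 6 members were lower past 1.5-fold. Hilpda had 81.5 CPM with Ptgs-/- cells and 124 CPM with Ptgs+/+ cells (-0.57, UMI ratio 0.663, 0.603 to 0.727), Ddit4 60.3 and 85.8 CPM (-0.48, ratio 0.711, 0.636 to 0.794), and Ero1l 112 and 149 CPM (-0.40, ratio 0.750, 0.690 to 0.814). Pfkp had 404 CPM with Ptgs-/- cells and 278 CPM with Ptgs+/+ cells (0.53, ratio 1.42, 1.35 to 1.5). These counting intervals leave out 1, and no replicate culture shows how far conditions vary by themselves. Hif1a was at 42.6 CPM with Ptgs-/- cells and 43.8 CPM with Ptgs+/+ cells. In the tumour classes TAM 1, TAM 2, TAM 3, Monocytes 1, cDC1, cDC2 and cDC3, by contrast, it was lower in Ptgs-/- tumours, in cDC2 within 1.5-fold. Tumour cDC1 had 91.2 CPM of Hif1a in Ptgs-/- tumours and 151 CPM in Ptgs+/+ tumours.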

How the data were processed

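Live CD45+ cells of 4 tumour libraries and 1 hashtagged culture library were analysed from 3 deposited matrices. Per the submitters' processing notes, Cell Ranger 3.0.2, mm10 and Partek were used. The values deposited by the authors are log2(CPM + 1) per cell, and the authors' deposited cell annotations give the library or hashtag and the class of each cell. Values were returned to CPM, and 99.93% to 99.94% of nonzero values were whole UMIs within 0.1 UMI plus 0.01%. Aldoa was not whole, so its level is uncertain and it has no UMI count. In the 5555 matrix, 36 cells without a class and 18 cells with 9 duplicated barcodes were left out, and 11818 were used. Libraries of a matrix shared 0 barcodes, and those of different matrices 2 to 14. No doublet caller was run.

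A level is the mean CPM over cells of a class. A fold is a difference of log2(mean CPM + 5), centred on the median of genes in at least 10% of cells where that passed 0.1. Genes past 1.5-fold were counted where 5% or more of the cells of one side or the other had a UMI, in classes of at least 30 cells. UMI ratios have exact conditional binomial 95% intervals. Counting intervals and the floor of 3 UMIs cover counting error alone. Python 3.11.15, numpy 2.4.6, scipy 1.17.1 and pandas 2.3.3 were used, and folds were tested on simulated data. There are no replicates, so no test was run.

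The members and gene lists were chosen with earlier results of these data known. Members given in full are, per comparison and class, up to 4 higher and 4 lower with the largest folds among members in at least 10% of cells, and Hif1a, and further members are named to account for the lists. Pseudocounts of 1 and 20, means of log2 values per cell, summed UMIs, no centring, other filters on genes and cells, and equal weight per cluster were tried as alternatives.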

Additional observations from a re-analysis of the deposited data

Results flagged for a closer look

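Some members passed 1.5-fold upward in TAM 1 and downward in another class of the same pair of libraries, with counting intervals that left out 1 in both. The difference of their folds was not tested. For Ptgs-/- over Ptgs+/+ tumours, the log2 fold in TAM 1 minus that in cDC3 was 2.75 for Slc16a3, 1.71 for Ndrg1 and 1.71 for Mif.

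For NK-depleted Ptgs-/- over Ptgs+/+ tumours, TAM 1 minus Monocytes 1 was 2.72 for Bnip3, 2.59 for Slc2a1, 2.36 for Ankrd37, 2.11 for Ndrg1, 2.04 for Slc16a3, 1.94 for Pgk1, 1.90 for Mif, 1.74 for Tpi1 and 1.49 for Pgam1. In the same comparison TAM 1 minus cDC3 was 3.86 for Bnip3, 2.89 for Mif, 2.87 for Slc16a3, 2.54 for Ldha, 2.27 for Pgk1, 2.02 for Tpi1 and 2.00 for Pgam1. Both comparisons use the same Ptgs+/+ cells.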

How the results depend on the processing

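Across 16 counts and module differences, 142 values were obtained under the alternatives. Of these, 132 stayed within 1.5 times the count, or close to the module difference, and 10 moved. A count could not be labelled as reversed, so that the 0 reversed covers the module differences alone. Under means of log2 values per cell, the HIF targets lower in cDC3 of Ptgs-/- tumours against Ptgs+/+ tumours numbered 5 in place of 8, those higher in cDC1 with Ptgs+/+ cells over untreated 12 in place of 7, the members lower in cDC1 with Ptgs-/- cells against Ptgs+/+ cells 6 in place of 0, and the excess of TAM 3 over the other TAM clusters was 3.06 in NK-depleted Ptgs-/- tumours, 2.42 in Ptgs-/- tumours and 2.65 in Ptgs+/+ tumours. Without centring, the HIF targets higher in cDC1 with Ptgs+/+ cells numbered 4, and those in cDC2 with Ptgs-/- cells 5 in place of 8. The cDC2 count was 3 with a pseudocount of 20, and the cDC1 count of members lower with Ptgs-/- cells was 1 with a pseudocount of 1. The cause was not tested. Some alternatives repeated the main values in a class, and they count as unmoved above and below. The filter for at least 500 genes, for example, left out 0 cells of TAM 1, TAM 2, TAM 3 and cDC3 for Ptgs-/- over Ptgs+/+ tumours. Of 506 median folds, 447 moved by at most 0.2 and 59 by more, and 11 changed sign. The changes of sign fell on the glycolysis medians of TAM 3 and cDC1 for Ptgs-/- over Ptgs+/+ tumours (-0.04, with 0.01 to 0.09 under 4 alternatives, and 0.07, with -0.21 to -0.01 under 3), on those of mDC over untreated (0.25 with Ptgs+/+ cells, -0.02 without centring, and 0.14 with Ptgs-/- cells, -0.08 without centring and -0.07 with means of log2 values), and on the HIF target median of all monocytes and macrophages for NK-depleted Ptgs-/- over Ptgs-/- tumours (-0.32, or 0.04 with equal weight per cluster). No paired analysis was possible because each group has 1 library or hashtag and no result comes from a test. Small classes (cDC1 and cDC3 of 5555 tumours) limit the depth of single genes.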

Other observations

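The 45 cells called NK cells in the NK-depleted library, which carry T cell markers, were higher in the members than the 510 NK cells of Ptgs-/- tumours. Pgk1 had 829 CPM in the NK-depleted library and 190 CPM in Ptgs-/- tumours, and Bnip3 140 and 19.6 CPM. Their HIF target level was 6.82, beside 5.26 in the NK cells of Ptgs-/- tumours and 5.99 in the T cells of the NK-depleted library.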
